A study of Mus musculus with 9 samples.

Results

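Immediate early genes are the genes a cell transcribes within minutes of a stimulus, before any new protein has to be made. The 10 genes described here were chosen by name: Fos, Fosb, Jun, Junb and Jund of the AP-1 family, and Atf3, Egr1, Klf6, Ier2 and Ier3. They and the gene lists below were chosen with earlier results of these data known. Their shares set beside those of all genes are therefore descriptions only. They are 10 of the 78275 gene IDs in the count table, and all 10 were among the 27773 genes that passed the filter on low counts. None of the 10 differed between the groups at an adjusted p below 0.05 in edgeR's quasi-likelihood test. The largest differences in mean level between a knockdown group and the control were in Atf3, Fos, Klf6 and Ier3, which were higher, and in Egr1 and Ier2, which were lower.

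The study introduced mCherry-shmiRNA plasmids into wild-type mouse embryos at E14.5 by in utero electroporation, in which DNA is injected into the brain ventricle and driven by current into the cells lining it. The knockdown plasmids targeted Gpc4 (sh-Gpc4) or Gpc2 (sh-Gpc2), genes of 2 glypicans, which are heparan sulfate proteoglycans anchored to the cell surface; the control plasmid (sh-NT) carried a scrambled sequence. At E16.5, 48 h later, cells positive for mCherry were sorted by flow cytometry, and RNA-seq was made from 3 libraries of each group. All 9 libraries share the wild-type embryos, the electroporation, the mCherry marker and the sort. The labels call the cells cortical progenitors and neurons of the forebrain. The labels do not tell if a group's libraries are of separate embryos or litters, so a p-value here reflects the spread among these libraries only, part of which may be technical. Libraries are named by the number in their column of the count table: 1, 2 and 4 for sh-NT, 1, 3 and 4 for sh-Gpc4, and 1, 2 and 4 for sh-Gpc2.

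FOS proteins pair with JUN proteins to form AP-1, a transcription factor, and EGR1 and KLF6 are zinc finger transcription factors. In resting cells these genes are held ready, and kinase signals acting on SRF with its ELK partners and on CREB start their transcription, which is soon shut off by feedback and by rapid decay of the mRNA. In neurons they are known as markers of recent synaptic activity, and in dissociated tissue also as genes induced during cell isolation.

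Depth was 48045603 to 66538437 counted reads a library. Markers of radial glia, intermediate progenitors and excitatory neurons had reads in every library (11 of 11, 9 of 9 and 14 of 14 genes), with summed levels of at least 1665, 1287 and 4896 CPM (reads scaled to library size with TMM factors). Endothelial markers summed to at most 10.5 CPM, whereas all 16 microglia and macrophage markers had reads in every library and summed to between 662 and 2461 CPM. On the first principal component, which held 71.6% of the variance, sh-Gpc4 library 3 (46.7) and sh-Gpc2 library 4 (36.6) lay apart from the other 7 libraries, which ran from -25.8 to 15.8. In these 2 libraries GC-rich transcripts were low: the median log2 difference from sh-NT of genes above 55.0% GC, minus that of genes below 43.4% GC, was -0.72 and -0.55, against -0.05 to 0.06 in the sh-NT libraries and -0.28 in sh-Gpc4 library 4. Of the targeted genes, Gpc4 had a log2 fold change of -0.53 (SE 0.21, edgeR adjusted p = 0.488) in sh-Gpc4 and Gpc2 had -0.54 (SE 0.33, edgeR adjusted p = 0.968) in sh-Gpc2. Gpc2 had -0.76 (SE 0.33, edgeR adjusted p = 0.488) in sh-Gpc4, a lower value than in its own knockdown, and Gpc4 had -0.15 (SE 0.21, edgeR adjusted p = 0.968) in sh-Gpc2. Gpc4 was at 99.9 to 137 CPM in the sh-Gpc4 libraries, below the sh-NT range of 165 to 188 CPM. Gpc2 was at 79.6 to 167 CPM in the sh-Gpc2 libraries and overlapped the sh-NT range of 161 to 207 CPM. Within its own knockdown, each target was lowest in the library that lies apart.

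The stretch just before the transcription start is one of the places where signals that switch genes on are read. It is shown for the members whose stretch holds one of the motifs searched. Sites of SRF and its ELK partners were not searched for, and sequence further upstream is not shown. RefSeq's promoter entries (GRCm38.p6) matched 8 of the 10 members, and the 150 bases before each start were searched on both strands for TGACG (the core of a CREB site, also contained in the full site TGACGTCA), TGACATCA (the AP-1 and ATF site known from the Jun promoter), TGANTCA (the classical AP-1 site) and TATAAA. Capitals mark TGACG or its reverse complement, TGACATCA and TATAAA.

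Fos (chr12:85473740-85473889, plus strand): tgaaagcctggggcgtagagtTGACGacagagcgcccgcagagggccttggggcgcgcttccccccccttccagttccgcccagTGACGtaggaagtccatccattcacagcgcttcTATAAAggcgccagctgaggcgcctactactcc
Fosb (chr7:19310046-19310195, minus strand): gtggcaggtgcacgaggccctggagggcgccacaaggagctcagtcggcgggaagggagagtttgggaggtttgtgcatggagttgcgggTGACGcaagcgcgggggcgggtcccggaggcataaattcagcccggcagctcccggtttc
Junb (chr8:84978749-84978898, minus strand): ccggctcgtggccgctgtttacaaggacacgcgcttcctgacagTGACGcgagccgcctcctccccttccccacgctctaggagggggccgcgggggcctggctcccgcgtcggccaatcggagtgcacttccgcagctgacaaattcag
Atf3 (chr1:191183334-191183483, minus strand): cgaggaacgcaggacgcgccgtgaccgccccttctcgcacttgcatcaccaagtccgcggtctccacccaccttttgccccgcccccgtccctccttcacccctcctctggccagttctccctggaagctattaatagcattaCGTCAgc
Jun (chr4:95052223-95052372, minus strand): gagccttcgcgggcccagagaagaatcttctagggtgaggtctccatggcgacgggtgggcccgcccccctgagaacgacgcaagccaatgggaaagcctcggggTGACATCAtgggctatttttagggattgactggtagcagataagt
Klf6 (chr13:5861339-5861488, plus strand): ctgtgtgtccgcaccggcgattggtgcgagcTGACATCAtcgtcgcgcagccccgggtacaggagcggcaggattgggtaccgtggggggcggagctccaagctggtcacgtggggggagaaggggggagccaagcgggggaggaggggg

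TGACG was present in 4 of the 8 (Fos, Fosb, Junb and Atf3), as it was in 13.3% of all 32851 promoters of that table, and Fos held it at -129 and -66 from its start. TGACATCA was present in Jun at -45 and in Klf6 at -119, as in 2.32% of all promoters. TATAAA was found in Fos alone of the 8, at -33, against 7.57% of all promoters. The full site TGACGTCA and the classical site TGANTCA were in none of the 8, and in 1.36% and 4.24% of all promoters. The 4 genes with TGACG did not share one pattern across the groups: the sh-Gpc2 libraries of Fos lay above the control, Fosb and Junb overlapped between all groups, and Atf3 varied most of the 10. The entry for Atf3 starts 34706 bp inside the outermost start annotated by GENCODE, and that for Jund lies at -1210 bp from that gene's annotated start (negative values are upstream). These matches describe letters and show no binding.

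In the control libraries the 10 genes spanned a wide range of levels. Per kilobase of exon, Jun was the highest in sh-NT at 218 CPM per kb, followed by Fos at 139.8, Ier2 at 107 and Egr1 at 93.4. Junb (40.0) and Klf6 (38.7) came next, and Atf3 (14.1), Jund (11.1), Ier3 (8.88) and Fosb (2.83) were the lowest on that scale. By CPM in sh-NT, Jun ranked at the 99.7th percentile of the tested genes, Egr1 at the 99.0th and Fos at the 98.5th, whereas Ier3 was at the 58.9th. Over the 9 libraries, the highest CPM was 4.84 times the lowest for Atf3, 3.89 times for Junb and 3.74 times for Egr1, but 1.72 times for Fos and 1.66 times for Jund.

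**Figure D1:**
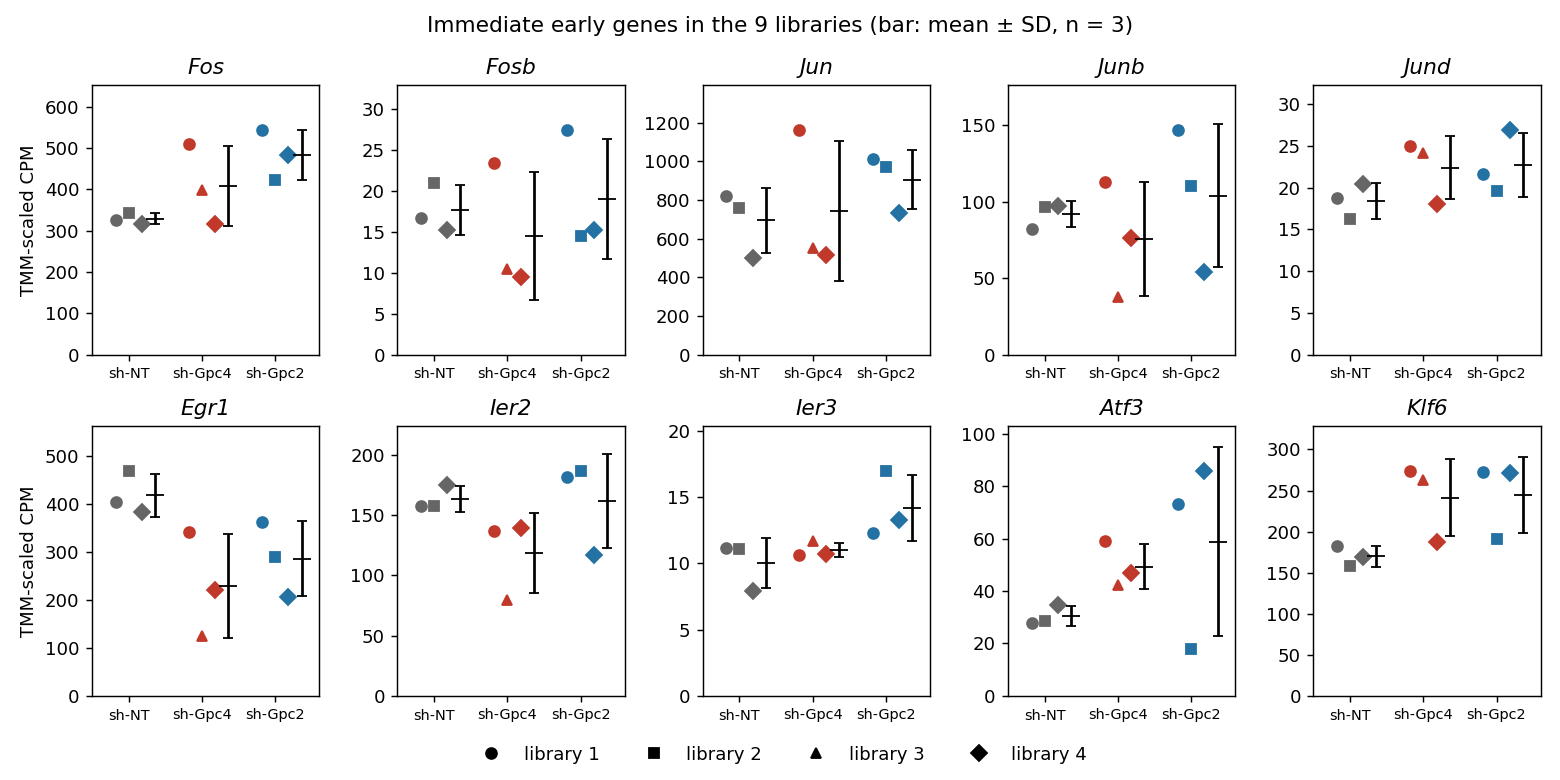
CPM (reads scaled to library size with TMM factors) of the 10 genes in each of the 9 libraries, 1 panel a gene, with 1 point for each library and bars for the mean and SD of the 3 libraries of a group. The sh-NT points of Fos, Klf6 and Atf3 lie close together and those of the knockdown groups are spread more widely, and all 6 knockdown points of Egr1 lie below the 3 sh-NT points.

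Fos (ENSMUSG00000021250, GRCm38 chromosome 12, 85473890 to 85477273, plus strand) encodes the AP-1 subunit that pairs with JUN proteins. Its level was 327, 343 and 317 CPM in the sh-NT libraries, 510, 399 and 317 CPM in the sh-Gpc4 libraries, and 544, 423 and 483 CPM in the sh-Gpc2 libraries. All sh-Gpc2 libraries lay above all sh-NT libraries, whereas sh-Gpc4 library 4 was level with the control. The mean was 328.9 ± 13.3 CPM (SD, n = 3) in sh-NT, 409 ± 97.2 in sh-Gpc4 and 483 ± 60.9 in sh-Gpc2. The log2 fold change in sh-Gpc2 was 0.56 (SE 0.16, 95% interval 0.19 to 0.92; edgeR unadjusted p = 0.00684, adjusted p = 0.968), and that p ranked 59 of 27773. In sh-Gpc4 it was 0.31 (SE 0.16, 95% interval -0.05 to 0.67; edgeR adjusted p = 0.488). Without the 2 libraries that lie apart, the values were 0.54 in sh-Gpc2 and 0.32 in sh-Gpc4.

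Fosb (ENSMUSG00000003545, chromosome 7, 19302696 to 19310051, minus strand) encodes a close relative of FOS. It had 16.7, 21.01 and 15.2 CPM in the sh-NT libraries, 23.4, 10.4 and 9.43 CPM in sh-Gpc4, and 27.4, 14.475 and 15.2 CPM in sh-Gpc2. In each knockdown group library 1 was the highest and the other libraries lay near or below the control, so all groups overlapped. The log2 fold changes were -0.29 (SE 0.37, edgeR adjusted p = 0.710) in sh-Gpc4 and 0.11 (SE 0.36, edgeR adjusted p = 0.977) in sh-Gpc2. Single libraries moved these values. Leaving out sh-Gpc4 library 1 gave -0.83 in sh-Gpc4, leaving out its library 4 gave -0.062, and leaving out sh-Gpc2 library 1 gave -0.25 in sh-Gpc2.

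Jun (ENSMUSG00000052684, chromosome 4, 95049034 to 95052222, minus strand), a gene of 1 exon, encodes the AP-1 subunit that can also pair with itself. Its levels were 823, 759 and 501 CPM in the sh-NT libraries, 1163, 550.5 and 515 CPM in sh-Gpc4, and 1012, 972 and 731 CPM in sh-Gpc2. The control itself varied here, with sh-NT library 4 the lowest of all 9, and the groups overlapped. The log2 fold changes were 0.10 (SE 0.31, edgeR adjusted p = 0.894) in sh-Gpc4 and 0.38 (SE 0.31, edgeR adjusted p = 0.968) in sh-Gpc2. Junos is annotated over Jun on the other strand. The sources used here do not give whether strand was used in counting, and their reads cannot be told apart. The same holds for Junb with Prdx2 and for Jund with Gm11175.

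Junb (ENSMUSG00000052837, chromosome 8, 84974484 to 84978718, minus strand) encodes a JUN protein that is a weaker activator than JUN at many sites. It had 82.3, 96.6 and 97.1 CPM in the sh-NT libraries, 113, 37.9 and 76.4 CPM in sh-Gpc4, and 147, 110.5 and 54.4 CPM in sh-Gpc2. The lowest values were those of sh-Gpc4 library 3 and sh-Gpc2 library 4, the 2 libraries that lie apart. The log2 fold change was -0.28 (SE 0.40, edgeR adjusted p = 0.747) in sh-Gpc4 with all libraries and 0.03 without those 2. In sh-Gpc2 it was 0.18 (SE 0.40, edgeR adjusted p = 0.968) and 0.47 without them. The transcript of Junb is 62.6% GC, within the GC-rich range above 55.0%.

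Jund (ENSMUSG00000071076, chromosome 8, 70698949 to 70700616, plus strand, 1 exon), the JUN gene known for steady rather than induced transcription, had 18.7, 16.2 and 20.5 CPM in sh-NT. In sh-Gpc4 it had 25.0, 24.1 and 18.1 CPM, and in sh-Gpc2 21.7, 19.6 and 26.9 CPM. It was the steadiest of the 10 over the libraries, and its groups overlapped. The log2 fold changes were 0.28 (SE 0.17, edgeR adjusted p = 0.497) in sh-Gpc4 and 0.30 (SE 0.17, edgeR adjusted p = 0.968) in sh-Gpc2. With each library's GC trend removed they were 0.72 and 0.54, the largest move of any member under that setting. Its transcript is the richest in GC of the 10, at 67.1%.

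Atf3 (ENSMUSG00000026628, chromosome 1, 191170296 to 191218039, minus strand) encodes a stress-induced partner of JUN proteins that often represses. It had 27.9, 28.7 and 34.7 CPM in the sh-NT libraries, 59.0, 42.2 and 47.0 CPM in sh-Gpc4, and 73.3, 17.7 and 85.8 CPM in sh-Gpc2. All sh-Gpc4 libraries lay above the control, whereas sh-Gpc2 held both the 2 highest libraries of the 9 and the lowest, library 2. The log2 fold change was 0.70 (SE 0.45, 95% interval -0.30 to 1.70; edgeR adjusted p = 0.509) in sh-Gpc4. In sh-Gpc2 it was 0.95 (SE 0.45, 95% interval -0.05 to 1.96; edgeR adjusted p = 0.968), 1.39 without sh-Gpc2 library 2 (edgeR adjusted p = 0.325) and 0.58 without sh-Gpc2 library 4 (edgeR adjusted p = 1).

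Microglia and macrophage markers varied over the same libraries. The summed level of the 16 markers was 1225, 1285 and 1902 CPM in the sh-NT libraries, 1734, 1807 and 2461 CPM in sh-Gpc4, and 2139, 662 and 2307 CPM in sh-Gpc2, with sh-Gpc2 library 2 again the lowest. With the mean log2 level of these markers as a covariate, the log2 fold change of Atf3 was 0.22 in sh-Gpc4 and 0.64 in sh-Gpc2 (edgeR adjusted p = 0.778 and 0.952). In such bulk samples, fewer cells of a type and less RNA per cell cannot be told apart. That covariate moved the other 9 members by less: Fos had 0.30 and 0.55, Klf6 0.43 and 0.50, and Egr1 -0.81 and -0.54 in sh-Gpc4 and sh-Gpc2.

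Egr1 (ENSMUSG00000038418, chromosome 18, 34859823 to 34864984, plus strand) encodes a zinc finger transcription factor and is a widely used marker of growth factor signalling and neuronal activity. Its levels were 405, 469 and 382 CPM in the sh-NT libraries, 342, 125 and 221 CPM in sh-Gpc4, and 362, 290.1 and 206 CPM in sh-Gpc2. Every knockdown library lay below every sh-NT library, with sh-Gpc4 library 3 the lowest. The mean was 419 ± 44.7 CPM (SD, n = 3) in sh-NT, 229.5 ± 109 in sh-Gpc4 and 286 ± 78.3 in sh-Gpc2. The log2 fold change was -0.87 in sh-Gpc4 (SE 0.32, 95% interval -1.59 to -0.15; edgeR unadjusted p = 0.0233, adjusted p = 0.488) and -0.55 in sh-Gpc2 (SE 0.32, 95% interval -1.27 to 0.17; edgeR adjusted p = 0.968). Without the 2 libraries that lie apart it was -0.58 and -0.37, and with the GC trend removed -0.63 and -0.43. By limma voom with sample weights the sh-Gpc4 value was -0.92 with an adjusted p of 0.0531. At an adjusted p below 0.05, limma voom called 0 of all 27773 genes in that comparison. Its transcript is 57.3% GC.

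Klf6 (ENSMUSG00000000078, chromosome 13, 5861482 to 5870394, plus strand) encodes a Krüppel-like zinc finger factor. It had 183, 158 and 169 CPM in the sh-NT libraries, 274, 263 and 187 CPM in sh-Gpc4, and 272, 191 and 271 CPM in sh-Gpc2. All 6 knockdown libraries lay above the control, and in each knockdown group 1 library was close to it. The log2 fold changes were 0.51 (SE 0.17, 95% interval 0.12 to 0.89; edgeR unadjusted p = 0.0158, adjusted p = 0.488) in sh-Gpc4 and 0.53 (SE 0.17, 95% interval 0.14 to 0.91; edgeR unadjusted p = 0.0130, adjusted p = 0.968) in sh-Gpc2. Klf6 is the poorest in GC of the 10, at 42.4%, within the GC-poor range below 43.4%. With the GC trend removed its values were 0.40 and 0.47, and without the 2 libraries that lie apart 0.43 and 0.44.

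Ier2 (ENSMUSG00000053560, chromosome 8, 84661331 to 84662852, minus strand, 1 exon) encodes a small nuclear protein and lies 312 kb from Junb. It had 157, 157 and 175 CPM in the sh-NT libraries, 136, 79.8 and 139 CPM in sh-Gpc4, and 181, 186 and 117 CPM in sh-Gpc2. All sh-Gpc4 libraries lay below the control, and in sh-Gpc2 only library 4 did. The log2 fold change was -0.46 (SE 0.23, edgeR unadjusted p = 0.0718, adjusted p = 0.488) in sh-Gpc4 and -0.02 (SE 0.23, edgeR adjusted p = 0.997) in sh-Gpc2. The sh-Gpc4 value was -0.25 without the 2 libraries that lie apart and -0.10 with the GC trend removed. Its transcript is 60.9% GC.

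Ier3 (ENSMUSG00000003541, chromosome 17, 35821684 to 35822923, plus strand) encodes a short-lived regulator of cell survival. Its levels were 11.2, 11.1 and 7.87 CPM in the sh-NT libraries, 10.6, 11.6 and 10.7 CPM in sh-Gpc4, and 12.3, 16.9 and 13.3 CPM in sh-Gpc2. The 3 sh-Gpc2 libraries were the highest of the 9, and sh-Gpc4 overlapped the control. The log2 fold change was 0.50 in sh-Gpc2 (SE 0.17, 95% interval 0.11 to 0.88; edgeR unadjusted p = 0.0177, adjusted p = 0.968) and 0.13 in sh-Gpc4 (SE 0.17, edgeR adjusted p = 0.729).

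**Figure D2:**
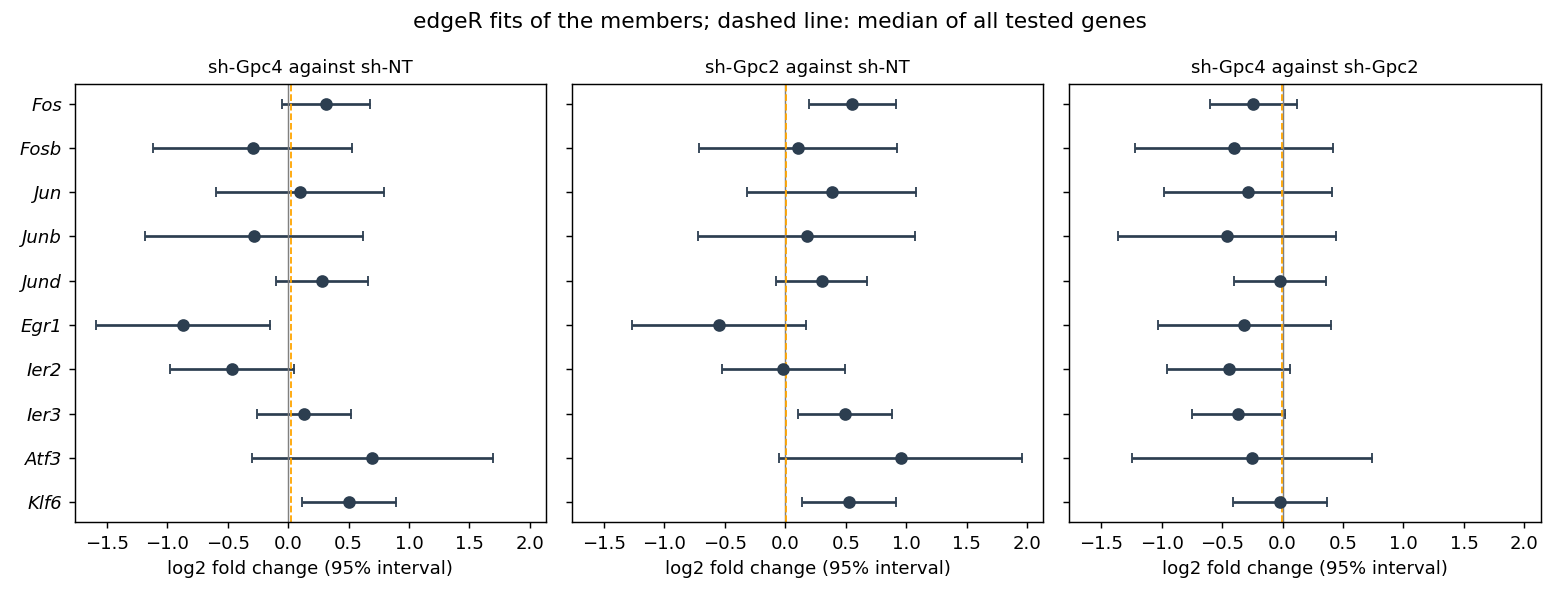
Log2 fold change of the 10 genes in the 3 comparisons, with points for the edgeR estimate and bars for its 95% interval. Between sh-Gpc4 and sh-NT the intervals of Egr1 and Klf6 leave out 0, between sh-Gpc2 and sh-NT those of Fos, Ier3 and Klf6 do, and between the knockdowns none does.

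Counted together, 0 of the 10 members had an adjusted p below 0.05 between sh-Gpc4 and sh-NT by edgeR, DESeq2 or limma voom, and 0% of all tested genes did by edgeR. Over all genes DESeq2 called 46 and limma voom 0. At an unadjusted p below 0.05, 2 members were called by edgeR (Klf6 higher, Egr1 lower), beside 9.57% of all genes (3.56% higher, 6.01% lower). DESeq2 had 2 members and limma voom 3 at that level. The share of all genes by those 2 tests was not counted, so their counts cannot be set beside a background. The libraries of sh-Gpc4 and sh-NT did not overlap for 4 members, 2 higher (Atf3, Klf6) and 2 lower (Egr1, Ier2), beside 24% of all genes (10.8% higher, 13.2% lower). Of the members, 6 had a log2 fold change above 0, beside 52.8% of all genes, and their median was 0.11 beside 0.02. Without the 2 libraries that lie apart the median of the members was 0.15, with the GC trend removed 0.32, and by limma voom -0.11. Leaving out sh-Gpc4 library 1 gave a median of -0.13 and leaving out sh-NT library 4 one of -0.060. The share of members above 0 was thus near that of all genes.

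Between sh-Gpc2 and sh-NT, edgeR, DESeq2 and limma voom again called 0 of the 10 members at an adjusted p below 0.05, and edgeR called 0% of all genes. At an unadjusted p below 0.05, edgeR had 3 members, all higher (Fos, Klf6 and Ier3), beside 2.56% of all genes (1.62% higher, 0.947% lower). DESeq2 had 4 members and limma voom 3, with no share of all genes counted for these tests. The libraries did not overlap for 4 members, beside 7.7% of all genes, with Fos, Klf6 and Ier3 higher, beside 3.59%, and Egr1 lower, beside 4.11%. A log2 fold change above 0 was found for 8 members, all but Egr1 and Ier2, beside 50.7% of all genes. The median of the members was 0.34 beside 0.003 for all genes, and it was 0.45 without the 2 libraries that lie apart and 0.48 with the GC trend removed. Both comparisons use the same 3 sh-NT libraries, so a value of these 3 enters the 2 of them alike.

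Directly compared, sh-Gpc4 had the lower mean for all 10 members, with log2 fold changes from -0.46 (Junb) to -0.02 (Klf6 and Jund) and a median of -0.30, beside -0.002 for all genes. Of all genes, 49.5% had a log2 fold change above 0, and of the members 0. EdgeR, DESeq2 and limma voom called 0 of the 10 at an adjusted p below 0.05, with 0% of all genes called by edgeR. The count at an unadjusted p below 0.05 was 0 for edgeR, beside 2.89% of all genes (1.09% higher, 1.8% lower). It was 0 for DESeq2 and 2 for limma voom, with no share of all genes counted for these tests. Only Ier3 had libraries that did not overlap between the knockdowns, with a log2 fold change of -0.37 (SE 0.17, edgeR unadjusted p = 0.0620, adjusted p = 0.966), beside 5.5% of all genes (3.5% higher, 2% lower). For Egr1 the difference was -0.32 (95% interval -1.03 to 0.40) and for Fos -0.24 (95% interval -0.60 to 0.12), so these data leave room for a difference in either direction between the 2 knockdowns.

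**Figure D3:**
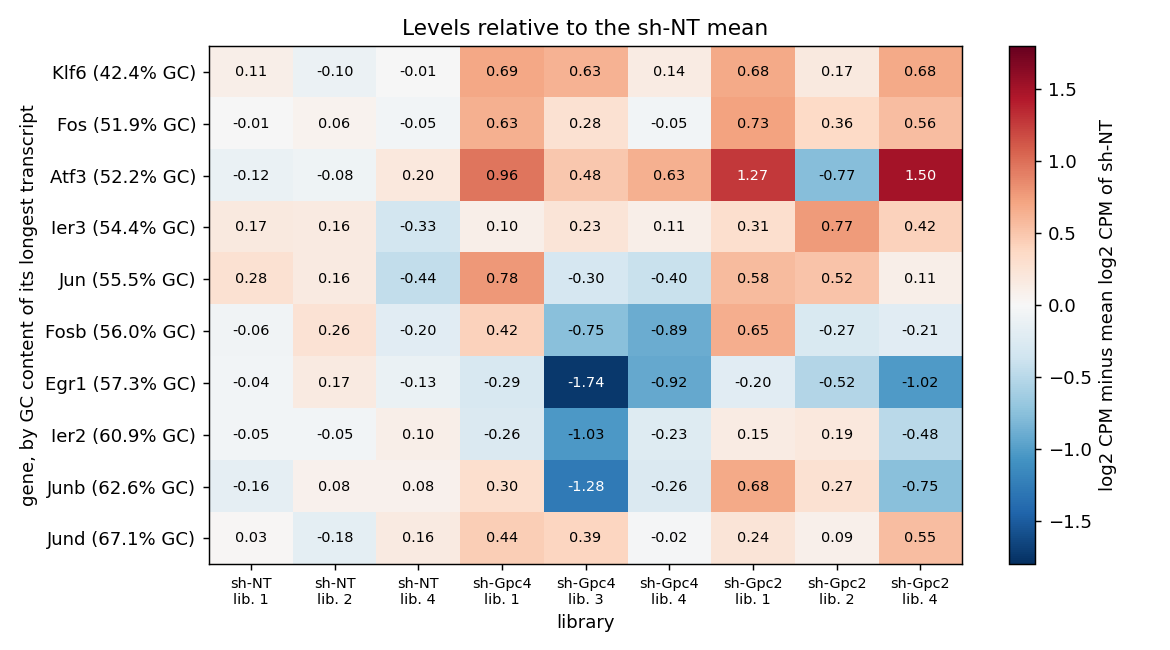
Log2 CPM of each gene in each library minus the mean log2 CPM of the sh-NT libraries, with genes ordered by the GC content of their longest transcript. In sh-Gpc4 library 3 and sh-Gpc2 library 4 the values are positive for Klf6, Fos and Atf3 at the top and negative for Egr1, Ier2 and Junb further down, while Jund, the richest in GC, is positive in both.

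Single libraries marked several genes at once, as the map of levels relative to sh-NT shows. Library 1 of sh-Gpc2 was the highest of all 9 for Fos, Fosb and Junb, and library 1 of sh-Gpc4 for Jun and Klf6. Library 3 of sh-Gpc4 was the lowest for Junb, Egr1 and Ier2, and the control library 4 was the lowest for Fos, Jun and Ier3. The mean of the 10 genes' centred log2 levels was 0.44 in sh-Gpc2 library 1 and 0.31 in sh-Gpc4 library 1, against -0.13 to -0.02 in sh-NT, and it was -0.38 and -0.26 in sh-Gpc4 libraries 3 and 4. The part of GC content in the levels of Junb, Egr1 and Ier2 was not tested beyond the values given for each.

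Ratios of members within a library do not depend on how libraries are scaled. The pair Fos and Egr1 was singled out after its values were seen, so it is given with no test. There were 0.808, 0.732 and 0.828 Fos reads per Egr1 read in sh-NT, 1.49, 3.18 and 1.43 in sh-Gpc4, and 1.503, 1.46 and 2.35 in sh-Gpc2. Egr1 thus had more reads than Fos in every control library and fewer in every knockdown library. Per kilobase of exon, Fos was above Egr1 in every library (139.8 against 93.4 CPM per kb in sh-NT). The exons of Egr1 span 4484 bp and those of Fos 2352 bp. The 2 highest ratios were those of the libraries that lie apart. Without those, the knockdown libraries ran from 1.43 to 1.503. Of the 45 pairs of members, the ratio did not overlap between groups for 20 in sh-Gpc4 against sh-NT, beside 23.7% of all gene pairs. It did not overlap for 9 in sh-Gpc2 against sh-NT, beside 8.25%, and for 0 between the knockdowns, beside 6.01%. Pairs that share a gene are not independent, and all of those 9 but Fos with Ier2 held Egr1. In both knockdowns 7 pairs shifted the same way, among them Egr1 with Fos, Jun, Junb, Jund, Ier3 and Klf6. The share of all gene pairs that did so was not counted, and both comparisons use the same sh-NT libraries.

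**Figure D4:**
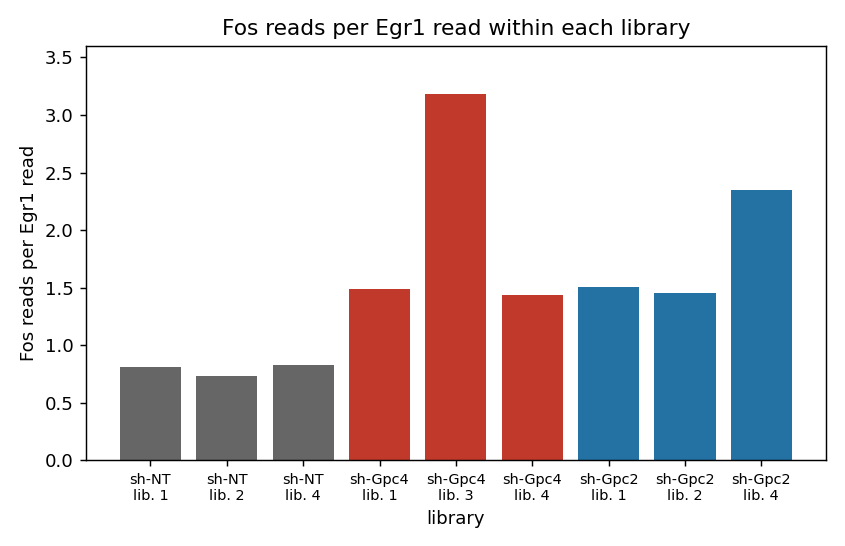
Fos reads per Egr1 read in each of the 9 libraries, 1 bar a library, on a linear axis from 0. The sh-NT bars lie between 0.732 and 0.828 and the knockdown bars between 1.43 and 3.18.

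Other immediate early genes were followed in a list of 33, of which 32 were tested. None passed an adjusted p of 0.05 in any comparison by edgeR. The list includes Junos, which overlaps Jun on the other strand, so it is not fully separate from the members. It shares Dusp1, Zfp36 and Zfp36l1 with the negative regulators given below. In sh-Gpc2, 25 of 32 had a log2 fold change above 0 (median 0.20), beside 50.7% of all genes. At an edgeR unadjusted p below 0.05 there were 6, all higher, beside 1.62% of all genes higher. In sh-Gpc4, 19 of 32 were above 0 (median 0.08), beside 52.8% of all genes. At that level 2 were higher and 1 lower, beside 3.56% and 6.01% of all genes. Klf4, a Krüppel-like factor, was at 8.79 ± 0.651 CPM in sh-NT, 13.8 ± 5.28 in sh-Gpc4 and 15.1 ± 4.04 in sh-Gpc2 (SD, n = 3), with log2 fold changes of 0.65 (SE 0.28) and 0.78 (SE 0.28). Gadd45b, a stress sensor of the GADD45 family, had log2 fold changes of 0.09 (SE 0.19) in sh-Gpc4 and 0.59 (SE 0.19) in sh-Gpc2. Rhob, an immediate early GTPase, had 39.8 ± 4.31 CPM in sh-Gpc4 and 58.9 ± 14.52 in sh-Gpc2, a log2 difference of -0.57 (SE 0.18). Between the knockdowns 25 of 32 were lower in sh-Gpc4 (median -0.23) and 7 higher, beside 49.5% of all genes higher. The same shares of all genes stand beside the counts of the lists that follow.

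**Figure D5:**
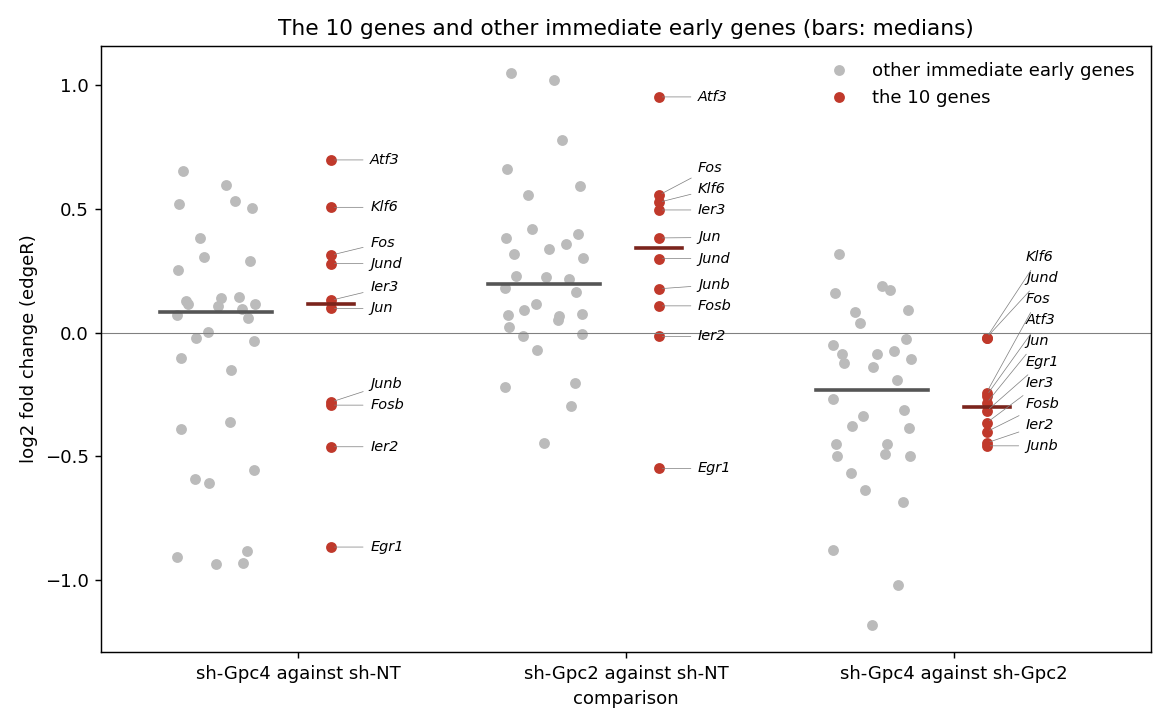
Log2 fold change (edgeR) of 32 other immediate early genes in grey and of the 10 genes in red, for each of the 3 comparisons, with bars for the medians. The medians of the 10 genes are 0.11, 0.34 and -0.30 and those of the others 0.08, 0.20 and -0.23.

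Partners of the AP-1 proteins did not pass the test either, with 6 of 12 above 0 in sh-Gpc4 (median -0.06) and 8 of 12 in sh-Gpc2 (median 0.10). Mafk, a small MAF protein, had log2 fold changes of -0.51 (SE 0.22) and -0.28 (SE 0.22), Batf3, which pairs with JUN proteins, had -0.12 (SE 0.28) and 0.52 (SE 0.28), and Fosl1, a FOS relative, was below 1 CPM throughout. Fosl1, Fosl2 and Maff are also counted among the other immediate early genes.

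Upstream of the members, the transcription factors and coactivators that start their transcription lay mostly below the control in mean level. Only 1 of 12 was above 0 in sh-Gpc4 (median -0.25; 0 higher and 3 lower at an edgeR unadjusted p below 0.05) and 3 of 12 in sh-Gpc2 (median -0.23; 0 and 0), and none passed the adjusted threshold. The 3 lower ones were the coactivators of CREB: Crtc1 was at 55.8 ± 9.50 CPM in sh-NT, 29.5 ± 9.999 in sh-Gpc4 and 39.5 ± 15.3 in sh-Gpc2 (SD, n = 3), a log2 fold change of -0.92 (SE 0.31) in sh-Gpc4. Crtc2 had -0.93 (SE 0.41) and Crtc3 -0.52 (SE 0.20) in that comparison. The largest fall of the list, -1.17 (SE 0.58), was in a gene other than these 3. The sh-Gpc4 libraries of 7 of the 12 lay wholly below the control, beside 13.2% of all genes. Crtc1 was at 22.0 and 23.9 CPM in the 2 libraries that lie apart, the lowest of the 9.

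Kinases of the pathway showed no common direction, with 9 of 16 above 0 in sh-Gpc4 (median 0.06; 2 higher and 4 lower at an edgeR unadjusted p below 0.05) and 5 of 16 in sh-Gpc2 (median -0.05; 0 and 1). Map2k2, a MAP kinase kinase, had a log2 fold change of -0.54 (SE 0.22; edgeR adjusted p = 0.488) in sh-Gpc4, and Rps6ka2, a kinase of the ribosomal S6 kinase family, had -0.60 (SE 0.17; edgeR adjusted p = 0.488).

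Negative regulators, which end the response, had 4 of 10 members above 0 in sh-Gpc4 (median -0.25; 2 higher and 2 lower at an edgeR unadjusted p below 0.05) and 5 of 10 in sh-Gpc2 (median 0.07; 2 and 0), with none past the adjusted threshold. The phosphatase gene Dusp1, itself an immediate early gene, was at 318 ± 19.3 CPM in sh-NT, 389 ± 75.7 in sh-Gpc4 and 419 ± 51.7 in sh-Gpc2, with a log2 fold change of 0.40 (SE 0.15) in sh-Gpc2. Dusp6, a phosphatase of MAP kinases, had 0.55 (SE 0.20) in sh-Gpc4 and 0.44 (SE 0.20) in sh-Gpc2. Cnot1, the scaffold of the complex that shortens poly(A) tails, had -0.39 (SE 0.13) in sh-Gpc4.

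Heat shock genes, which handling and protein stress induce, were followed beside the members. All 12 had a log2 fold change above 0 in sh-Gpc4 (median 0.23), beside 52.8% of all genes, and in sh-Gpc2 (median 0.22), beside 50.7%. At an edgeR unadjusted p below 0.05, 2 were higher in sh-Gpc4, beside 3.56% of all genes, and 5 in sh-Gpc2, beside 1.62%. None passed the adjusted threshold. Hspa1a, an inducible HSP70 gene, was at 12.3, 9.45 and 13.1 CPM in the sh-NT libraries, 38.3, 23.0 and 10.9 CPM in sh-Gpc4, and 51.6, 32.5 and 28.4 CPM in sh-Gpc2. Its log2 fold changes were 1.05 (SE 0.40) and 1.69 (SE 0.40; edgeR unadjusted p = 0.00210, adjusted p = 0.968), and within each knockdown group library 1 was the highest, as for Fos, Fosb, Jun, Junb, Egr1 and Klf6. Hspa1b, a near-identical copy with which it can share reads, had 1.26 (SE 0.41) and 1.71 (SE 0.41), so the 2 are uncertain one by one. Hspa5, a chaperone of the endoplasmic reticulum, had 0.25 (SE 0.13) and 0.43 (SE 0.13). The part of handling in the levels of the members was not tested.

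The 5 genes whose level over the 9 libraries was most like the mean of the members, among 10979 candidates with a mean above 5 CPM over the libraries, were Zfp524 (Pearson r = 0.88), Pak6 (0.88), Junos (0.86), Exoc4 (0.83) and Scd1 (0.83). These 5 were picked as the highest of 10979 over only 9 libraries, so their values are high by selection. They are given as a description without a test, and Junos overlaps Jun. Exoc4 ranged only from 139 to 163 CPM, and Zfp524 from 4.51 to 7.27 CPM.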

How the data were processed

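RNA of mCherry-positive cells was sequenced in 9 libraries, 3 a group. The authors deposited raw read counts per gene, 1 column a library. They counted with featureCounts of Subread and named the builds GRCm38 and mm10, per the submitters' processing notes. Not given in the sources used here are the aligner, the annotation release, any use of strand and all versions. Every table column is one of these libraries. Column numbers (1, 2 and 4, or 1, 3 and 4) differ from the numbers in the sample titles, so a column was tied to its group only. GENCODE M21 gave symbols to 51486 of 78275 IDs (65.8%), and to all 10 members.

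In R 4.3.3, edgeR 4.0.16's quasi-likelihood test was fitted to the counts as deposited, with all 9 libraries, 1 coefficient a group, TMM and the default low-count filter. The 3 contrasts were adjusted by Benjamini-Hochberg over 27773 genes, with a threshold of 0.05. SE is the log2 fold change over the square root of F, and intervals are 95% at the test's degrees of freedom (median 9.50). Log2 CPM uses a prior count of 2. CPM per kb divides by the exon length of GENCODE M21. Counts of libraries of a group differed beyond counting noise (chi-square of 8.35 to 88.3 for each degree of freedom), so none was a duplicate. The members had 445 reads or more in every library, and counting error was small beside the spread of most. This does not hold for Ier3 in sh-Gpc4, where 533, 776 and 726 reads came with an SD of only 5.1% of the mean. The edgeR step was tested on simulated data.

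The members and lists were chosen with earlier results of these data known. All members are named, with Gpc4, Gpc2, up to 3 genes of each list with the smallest p, and the 5 genes most alike by Pearson r. The values of 1 gene of the kinase list are not reported here. The tests were repeated with the Wald test of DESeq2 1.42.0, limma 3.58.1 voom with sample weights, edgeR with DESeq2's size factors, no filter, more than 5 CPM in at least 3 libraries, only the 2 groups compared, a block for the column's number, a microglia covariate, and each library left out in turn. Leaving out the 2 libraries that lie apart, and removing each library's GC trend by offsets, were added after seeing the data. GC values are of the longest GENCODE M21 transcript.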

Additional observations from a re-analysis of the deposited data

How the results depend on the processing

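In all 19 alternatives 0 of the 10 members passed an adjusted p of 0.05 in each comparison, and the smallest adjusted p of any member was 0.0531 (Egr1, sh-Gpc4 against sh-NT, limma voom). Against sh-NT, Egr1 stayed negative and Fos, Klf6 and Atf3 stayed positive in all 19 for both knockdowns. Without sh-Gpc4 library 3 Egr1 in sh-Gpc4 was -0.57, without sh-Gpc2 library 4 Egr1 in sh-Gpc2 was -0.36, and without sh-Gpc4 library 1 Fos in sh-Gpc4 was 0.12. Signs turned as follows, and the cause was not tested. By limma voom, Jun in sh-Gpc4 was -0.30, Ier2 in sh-Gpc2 0.058 and Atf3 between the knockdowns 0.12. Without the 2 libraries that lie apart, Junb in sh-Gpc4 was 0.031, Ier2 in sh-Gpc2 0.16, Atf3 between the knockdowns 0.22 and Jund 0.065. With the GC trend removed, Junb in sh-Gpc4 was 0.053, Ier2 in sh-Gpc2 0.15 and Jund between the knockdowns 0.19. With 1 library left out at a time, the values against sh-NT in sh-Gpc4 ran from -0.38 to 0.30 for Jun, -0.022 to 0.21 for Ier3 and -0.69 to 0.047 for Junb. In sh-Gpc2 they ran from -0.13 to 0.17 for Ier2, -0.25 to 0.27 for Fosb and -0.16 to 0.49 for Junb. Between the knockdowns they ran from -0.12 to 0.12 for Jund, -0.17 to 0.13 for Klf6 and -0.69 to 0.12 for Atf3. The median of the 10 members in sh-Gpc4 against sh-NT turned from 0.11 to -0.11 by limma voom, and ran from -0.13 to 0.23 with 1 library left out at a time.

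Whether the column numbers pair the samples could not be told. Deviations of same-numbered libraries of different groups correlated at -0.10 to 0.68, within the range of -0.87 to 0.83 of those with different numbers. With a replicate block by number, the median of the members was 0.17, 0.35 and -0.18 in the 3 comparisons, with 0 members called. Under the block Junb in sh-Gpc4 was 0.030 and Egr1 between the knockdowns 0.030. Number 3 occurs in 1 library only, which the block leaves without weight in the comparisons.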
